A study of Mus musculus with 20 samples.

Results

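The Nat8 acetyltransferase family of the mouse was described here through its 8 genes, Nat8 and Nat8f1 to Nat8f7, in RNA sequencing libraries of kidney and liver. The members were chosen by gene symbol, as all rows of the count table with 1 of these 8 symbols among 54532 genes. The family was proposed for description with results of these same data in view, and which values led to it is not recorded. Its differences between labelled genotypes, in kidney, in liver and between the tissues, are therefore given as a description with no p-value. A member is named as called there where it passed an adjusted p under 0.05 in the fit across all genes, and neither the calls nor their number is evidence about the family. The contrast of kidney with liver within each labelled genotype keeps its p-values, which do not allow for how the family was proposed.

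The study compared male C57BL/6 mice labelled Lxrα-/- with male mice labelled wild type of the same strain background. There were 4 groups of 5 libraries: kidney labelled Lxrα-/-, kidney labelled wild type, liver labelled Lxrα-/- and liver labelled wild type. No other allele, treatment, diet or age stands in the labels. Titles carry the numbers 1 to 5 for Lxrα-/- and 1, 3, 4, 5 and 6 for wild type, in kidney and in liver alike, and kidney and liver come from the same 5 mice of a labelled genotype as far as the design text says.

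Enzymes of the Nat8 family are bound to the membrane of the endoplasmic reticulum and transfer an acetyl group from acetyl-CoA. Human NAT8 acetylates cysteine S-conjugates, the last step by which glutathione adducts become mercapturic acids for excretion in urine, and it is known as a gene of the kidney proximal tubule. Human NAT8 and its close relative NAT8B have also been reported to acetylate lysines of proteins inside the endoplasmic reticulum. The substrates of most mouse copies are less well established, and the genes Nat8f1 to Nat8f7 are also known as camello-like genes. The gene Nr1h3 encodes Lxrα, a receptor in the nucleus that binds oxysterols and acts on genes of cholesterol and lipid handling.

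Counts of the targeted gene were higher, not lower, under the knockout label. Nr1h3, on chromosome 2 from 91184061 to 91202834 (mm10), had 79.5, 99.6, 110.3, 93.4 and 129.6 CPM (read counts relative to the scaled library size) in the kidneys labelled Lxrα-/-, against 40.6, 38.1, 42.4, 43.8 and 41.9 CPM in the kidneys labelled wild type. It had 177.7, 191.4, 208.8, 224.9 and 239.4 CPM in the livers labelled Lxrα-/-, against 111.5, 115.6, 126.8, 150.5 and 104.7 CPM in the livers labelled wild type. Its transcript was thus higher in every library labelled knockout than in any wild-type library of the same tissue, by 1.27 ± 0.16 on the log2 scale in kidney and 0.76 ± 0.12 in liver (SE, edgeR adjusted p = 0.00209 and 0.00277). Gene counts do not show which exons the reads cover, so they neither bear out nor contradict the labels. The groups are therefore called by their labels throughout, and every direction between genotypes below is a direction between labels.

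Total counts ran from 23421561 to 35376342 per library. Among the wild-type kidneys, library 3 had 50.8% and library 1 had 7.21% of its counts on mitochondrially encoded genes, while the other 8 kidney libraries lay between those values. All 16 proximal tubule markers were tested in kidney, and their summed level was 43322 to 57879 CPM in the kidneys labelled Lxrα-/- and 24034 to 37815 CPM in the wild-type kidneys, with no overlap. The 12 hepatocyte markers summed to 90983 to 125225 CPM in the livers labelled Lxrα-/- and to 131408 to 175714 CPM in the wild-type livers, a gap that lies mostly in Alb. The other 11 summed to 50624 to 57414 CPM in the livers labelled Lxrα-/- and 50086 to 64042 CPM in the wild-type livers, and none of them was called. The 6 distal nephron markers together had 0.205 to 0.888 CPM in the livers labelled Lxrα-/- and 0.211 to 0.677 CPM in the wild-type livers. The tissues thus carried the markers of their labels. In whole tissue, a change in the number of cells of a type and a change in RNA per cell cannot be told apart.

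The 8 genes lie in a row on the minus strand of chromosome 6, over 209.0 kb from 85706727 to 85915687 (mm10, as in the count table). In order of position they are Nat8f7, Nat8f3, Nat8f6, Nat8f5, Nat8, Nat8f2, Nat8f4 and Nat8f1. Nat8 itself (ENSMUSG00000030004) spans 85830388 to 85832082, Nat8f5 (ENSMUSG00000079494) spans 85817218 to 85820972 and Nat8f2 (ENSMUSG00000033634) spans 85865422 to 85869158. The GENCODE M21 annotation gives the same identifier and span for all 8 members.

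How alike the copies are bears on every count below. The coding sequences of Nat8f3, Nat8f6 and Nat8f7 were 99.56% to 99.71% identical to each other. Nat8f2 and Nat8f4 shared 89.23% and Nat8 and Nat8f1 84.23%, and the most distant pair, Nat8f3 and Nat8f4, shared 69.35%. Of all 100-base windows of the longest transcript, 75.8% in Nat8f3, 68.3% in Nat8f7 and 51.0% in Nat8f6 also occurred in another member or in the neighbouring pseudogene Nat8b-ps. That share was 10.4% in Nat8f1, 7.43% in Nat8f4, 6.78% in Nat8f2, 4.17% in Nat8f5 and 1.07% in Nat8. Nat8f6 and Nat8f5 overlap on the same strand by 135 exonic bases, 7.95% of the exonic bases of Nat8f6 and 13.7% of those of Nat8f5. Counts of Nat8f3, Nat8f6 and Nat8f7 are therefore uncertain between these 3 genes, and those of Nat8f6 also against Nat8f5.

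The stretches before the gene starts are shown because they relate Nat8 to the copies whose levels are described next. RefSeq promoter windows of GRCm38, 250 bases before to 50 bases after a start, were found for all 8 members, with 2 windows each for Nat8 and Nat8f4. The window of Nat8 nearest to its counted exons holds a stretch that aligned with windows of Nat8f5, Nat8f6 and Nat8f7. Each is printed 5′ to 3′ on the minus strand, with capitals marking GTTAAT, the half-site of the HNF1 factors, which are known regulators of kidney and liver genes.
Nat8 (chr6:85832277-85832330): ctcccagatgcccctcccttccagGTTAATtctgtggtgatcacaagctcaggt
Nat8f5 (chr6:85821096-85821141): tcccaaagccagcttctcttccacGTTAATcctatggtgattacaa
Nat8f6 (chr6:85810017-85810064): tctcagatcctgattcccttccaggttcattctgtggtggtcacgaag
Nat8f7 (chr6:85708713-85708756): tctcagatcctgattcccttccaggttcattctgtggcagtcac
Against the Nat8 stretch, the identity was 84.09% over 44 aligned bases in Nat8f5, 84.78% over 46 in Nat8f6 and 79.07% over 43 in Nat8f7. The window of Nat8f2 aligned with it over 18 bases, all identical, with gaps. Between whole windows, that of Nat8f5 aligned over more bases with Nat8f2 (77.18% identity over 206) than with this window of Nat8 (78.95% over 57). GTTAAT occurred in the windows of Nat8 and Nat8f5, at 27 and 145 bases before the start, and in no window of the other members, searched on both strands. It occurred in 7.10% of all 32851 promoter windows. The window of Nat8f6 lies inside its counted span, 85808024 to 85820954. The 5′ end of that span falls within the window of Nat8f5.

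The whole window of Nat8f5 is shown because it held the nuclear receptor half-site AGGTCA as well, on the opposite strand and so printed as TGACCT, 84 bases before the start.
Nat8f5 (chr6:85820923-85821222): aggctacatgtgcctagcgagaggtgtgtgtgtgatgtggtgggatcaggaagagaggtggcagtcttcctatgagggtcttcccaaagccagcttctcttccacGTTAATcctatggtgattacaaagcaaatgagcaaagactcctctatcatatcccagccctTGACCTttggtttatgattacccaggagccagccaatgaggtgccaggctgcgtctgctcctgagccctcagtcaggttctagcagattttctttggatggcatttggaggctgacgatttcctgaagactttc
Both windows of Nat8f4 also held AGGTCA, and no other member's window did. AGGTCA occurred in 16.3% of all promoter windows. A pair of AGGTCA in the same direction 4 bases apart, the arrangement called DR4 that LXR receptors are known to bind, occurred in 5 of the 32851 windows and in none of the members. These are matches of letters in windows of 300 bases and say nothing of binding. The windows of Nat8f6 and Nat8f7 were 97.95% identical over 292 aligned bases. The second window of Nat8, farther upstream, was 98.54% identical over 206 aligned bases to that of Nat8f3.

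Nat8f1 and Nat8 were the leading members in kidney, and Nat8f2 and Nat8f1 in liver. To compare genes, CPM were divided by gene length in kilobases (CPM per kb). In the wild-type kidneys Nat8f1 was highest at 230.0 ± 113.7 CPM per kb, followed by Nat8 at 129.7 ± 63.5, Nat8f6 at 46.5 ± 21.1, Nat8f5 at 17.7 ± 9.70 and Nat8f2 at 10.2 ± 5.57 (SD, n = 5 libraries). Nat8f3 and Nat8f4 stood at 4.05 ± 1.41 and 3.18 ± 0.35 CPM per kb, and Nat8f7 lay between 0.977 and 3.50 CPM per kb. The ranges of each pair of neighbours in this order overlapped, although the order of the leading 6 genes held within each of the 5 libraries. In the wild-type livers Nat8f2, at 288.4 ± 51.3 CPM per kb, and Nat8f1, at 265.9 ± 36.7, led the family, and their ranges overlapped. Nat8f5, Nat8f4 and Nat8 followed at 4.10 ± 2.84, 3.65 ± 0.45 and 1.60 ± 0.41 CPM per kb. Nat8f5 and Nat8f4 overlapped, while Nat8 lay below Nat8f4 in all 5 libraries without overlap.

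In the kidneys labelled Lxrα-/-, Nat8f1 again led at 314.4 ± 42.3 CPM per kb, with Nat8 at 289.2 ± 59.1, Nat8f5 at 68.5 ± 36.8 and Nat8f6 at 64.3 ± 14.9 (SD, n = 5). Nat8f1 exceeded Nat8 in all 5 libraries, though the ranges overlapped, and Nat8f5 exceeded Nat8f6 in 2 of 5. In the livers labelled Lxrα-/-, Nat8f2 stood at 499.0 ± 76.6 CPM per kb, above Nat8f1 at 199.5 ± 42.6 with no overlap. Nat8 came next there at 28.5 ± 5.44 CPM per kb, overlapping with Nat8f5 at 21.9 ± 9.36.

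**Figure D1:**
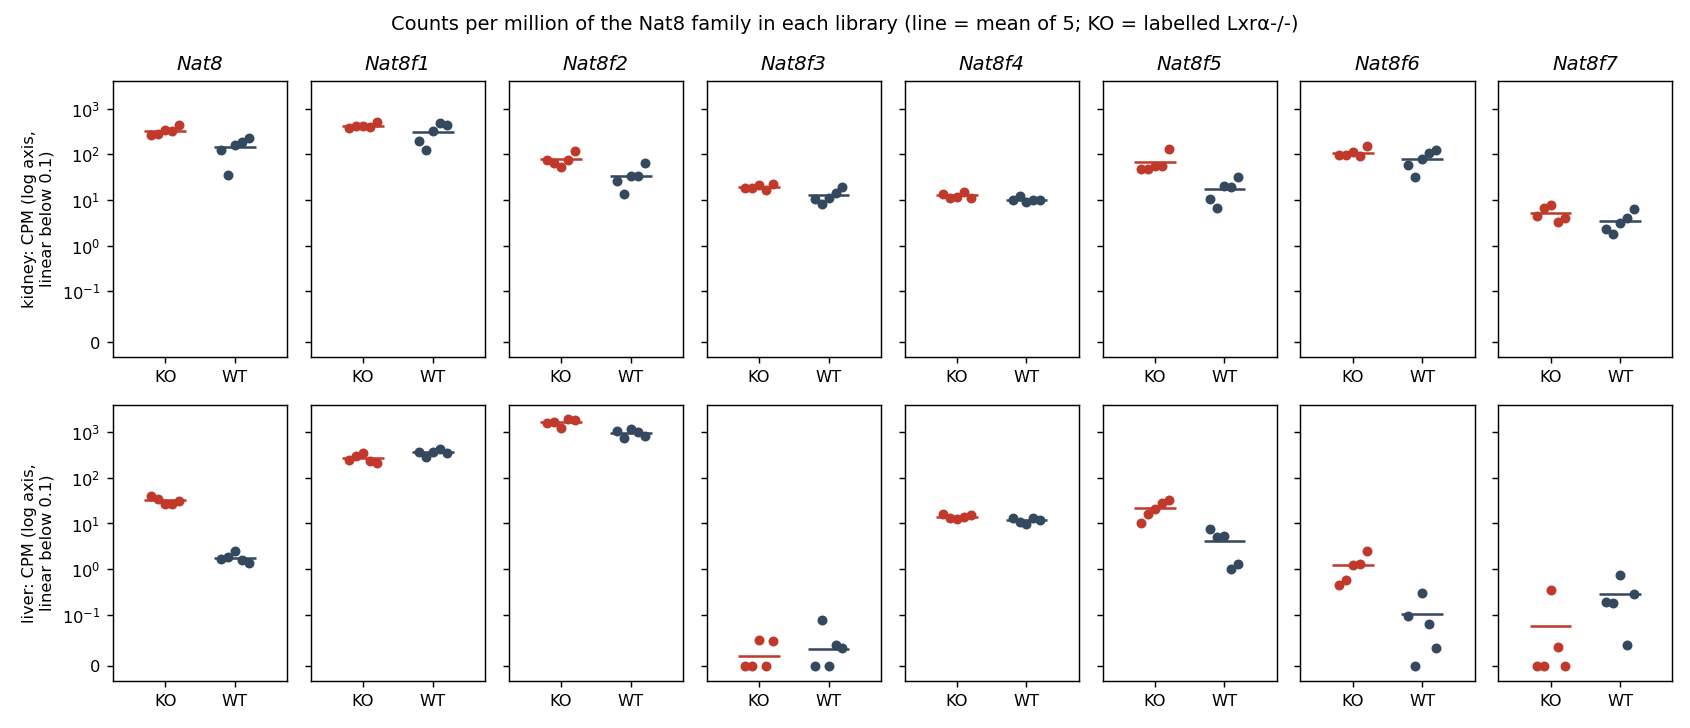
CPM of each member (columns) in kidney (top) and liver (bottom), on a log axis that is linear below 0.1; each point is 1 library, the line is the mean of 5, and KO stands for the label Lxrα-/-. In liver the 5 labelled knockout points of Nat8 lie between 26.3 and 40.8 CPM and the 5 wild-type points between 1.34 and 2.56 CPM.

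The tissue contrast was tested within each labelled genotype, kidney over liver. Nat8f3, Nat8f6 and Nat8f7 entered these fits through their kidney counts alone, since they did not pass the filter on low counts among the livers, and their values are given without a p-value and left out of the counts. Of the other 5 members, 3 were higher in kidney and 1 lower in mice labelled Lxrα-/-, where 34.2% of all tested genes were called higher and 32.6% lower. In wild-type mice 2 of the 5 were higher and 1 lower, against 29.6% and 24.2% of all tested genes. These fits treat the libraries as independent, and with title numbers as a block for the mouse no call of a member changed. Fold changes below are on the log2 scale with their SE, and adjusted p-values are from edgeR's quasi-likelihood test.

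Nat8 was the kidney gene among the abundant members. It differed by 3.34 ± 0.17 in mice labelled Lxrα-/- (adjusted p = 1.53e-09) and by 6.34 ± 0.46 in wild-type mice (adjusted p = 5.34e-08). Nat8f2 was the liver gene, at -4.42 ± 0.23 in mice labelled Lxrα-/- (adjusted p = 1.73e-09) and -4.81 ± 0.39 in wild-type mice (adjusted p = 1.51e-07). Both held in 5 of 5 libraries of each group without overlap between the tissues. How many of all tested genes separate the tissues in this way was not counted, so the lack of overlap does not mark these genes out.

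Nat8f3, Nat8f6 and Nat8f7, the nearly identical copies, had nearly all of their counts in kidney. Nat8f3 had 3338 counts over the 5 kidneys and 2 over the 5 livers labelled Lxrα-/-, and 2443 and 4 counts over the wild-type kidneys and livers. After scaling, this is a ratio of 1040 in labelled knockout (95% exact interval 288 to 8590) and 384 in wild type (150 to 1412), intervals that cover counting error only. Nat8f6 had 19018 counts over the kidneys and 133 over the livers labelled Lxrα-/-, a scaled ratio of 89.1 (75.1 to 106.5), and 15396 and 12 counts in wild type, a ratio of 808 (462 to 1563). Nat8f7 had 908 and 8 counts in labelled knockout, a ratio of 70.7 (35.7 to 164), and 679 and 34 counts in wild type, a ratio of 12.6 (8.91 to 18.3).

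Nat8f5 was higher in kidney by 1.64 ± 0.34 in labelled knockout (adjusted p = 0.000904), without overlap, and by 2.12 ± 0.54 in wild type (adjusted p = 0.0042), where the tissues overlapped. Nat8f1 differed by 0.66 ± 0.15 in labelled knockout (adjusted p = 0.00192) and by -0.20 ± 0.32 in wild type (adjusted p = 0.621), a value that turns positive without TMM scaling and without wild-type kidneys 1 and 3. Nat8f4 differed by -0.18 ± 0.13 in labelled knockout (adjusted p = 0.26) and -0.20 ± 0.16 in wild type (adjusted p = 0.32). Without TMM scaling, which moves the median of all genes by 0.624 in labelled knockout and 0.688 in wild type, both Nat8f4 values become positive and pass the threshold.

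**Figure D2:**
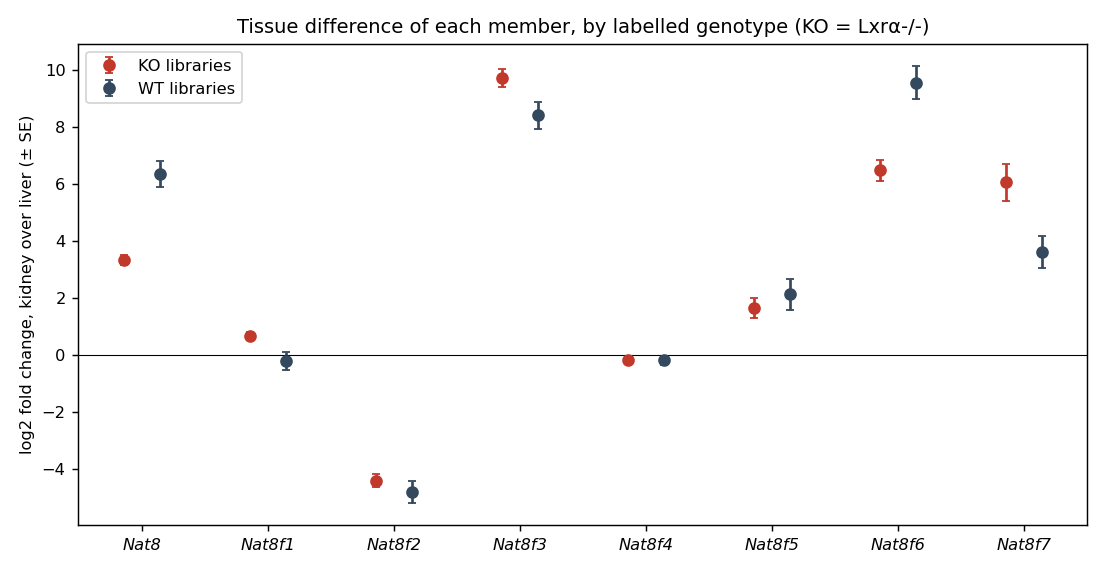
Log2 fold change of kidney over liver with its SE for each member, in libraries labelled Lxrα-/- (KO) and wild type (WT), 5 libraries a group. Nat8f2 lies below 0 in both, at -4.42 and -4.81, and Nat8 above 0 in both, at 3.34 and 6.34.

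Nat8, whose human counterpart makes mercapturic acids, was higher in every liver labelled Lxrα-/- than in any wild-type liver. It had 40.8, 35.0, 26.4, 26.3 and 31.5 CPM in the livers labelled Lxrα-/- 1 to 5, from 886, 671, 516, 720 and 646 counts. The wild-type livers 1, 3, 4, 5 and 6 had 1.70, 1.81, 2.56, 1.59 and 1.34 CPM, from 35, 40, 59, 39 and 38 counts. The 2 ranges lay far apart. The log2 fold change was 4.15 ± 0.20, a 17.7-fold difference, and Nat8 was called. In these livers 1.94% of all tested genes were called higher and 4.08% lower, and for 2.44% every labelled knockout library lay above every wild-type library.

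In kidney, where it is far more abundant, Nat8 had 266.3, 270.8, 337.6, 319.1 and 430.0 CPM in the libraries labelled Lxrα-/- and 122.6, 36.1, 159.6, 188.4 and 221.5 CPM in the wild-type libraries. The groups did not overlap, and wild-type kidney 3, the library rich in mitochondrial counts, was lowest. The log2 fold change of 1.13 ± 0.36 was not called. Without wild-type kidneys 1 and 3 it was 0.74 and was called. In kidney 0.394% of all tested genes were called higher and 1.87% lower, and 3.07% had no overlap with the labelled knockout above. Proximal tubule markers moved the same way there, as given above, and their part in the kidney values of the family was not tested.

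Nat8f5 lies next to Nat8 and was the member called in both tissues. In liver it had 10.03, 15.9, 20.9, 28.3 and 33.0 CPM in the libraries labelled Lxrα-/- and 7.47, 5.10, 5.34, 1.02 and 1.27 CPM in the wild-type libraries. The groups did not overlap, but each varied over a wide range, with wild-type livers 5 and 6 well below the others. The log2 fold change was 2.42 ± 0.49, or 5.35-fold. The liver call of Nat8f5 was lost with title numbers as a replicate block. Between labels such a block joins different mice that nothing ties, and a number found under 1 label only adds nothing to the fold change. The lost call is therefore no measure of how firm the value is. In kidney it had 46.8, 47.2, 55.3, 56.4 and 131.9 CPM in the libraries labelled Lxrα-/- and 10.3, 6.66, 20.1, 19.1 and 31.2 CPM in the wild-type libraries, again without overlap. Labelled knockout kidney 5 stood far above the other 4. The log2 fold change was 1.92 ± 0.40 and was called, but the call was lost on leaving out any of wild-type kidneys 1, 4 and 5 or labelled knockout kidneys 1, 3, 4 and 5, with log2 fold changes of 1.54 to 2.02.

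Nat8f2, the leading copy of the liver, had 1607, 1689, 1239, 1888 and 1814 CPM in the livers labelled Lxrα-/- and 1051, 734.3, 1141, 1015 and 819.1 CPM in the wild-type livers. The groups did not overlap, and labelled knockout liver 3 came nearest to the wild-type range. The log2 fold change was 0.78 ± 0.16 and was called. It missed the threshold in a fit of all 20 libraries. It also missed it with title numbers as a replicate block, which joins mice of different labels that nothing ties. In kidney Nat8f2 had 75.6, 64.9, 52.5, 76.1 and 116.3 CPM in the libraries labelled Lxrα-/- and 25.5, 13.5, 32.9, 33.6 and 63.3 CPM in the wild-type libraries. Wild-type kidney 6 overlapped with the labelled knockout range, and the log2 fold change of 1.16 ± 0.33 was not called.

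Nat8f1 and Nat8f4 were not called between the labels in either tissue in the main fits. Nat8f1 had 371 to 520 CPM in the kidneys labelled Lxrα-/- and 125 to 486 CPM in the wild-type kidneys, with a log2 fold change of 0.42 ± 0.32. In liver it had 245.0, 292.2, 356.2, 236.9 and 211.1 CPM in the libraries labelled Lxrα-/- and 363.1, 285.7, 366.3, 423.9 and 349.4 CPM in the wild-type libraries. These overlapped, and the log2 fold change of -0.42 ± 0.16 had the opposite sign to that of the other tested members in liver. Nat8f4 had 11.0 to 15.3 CPM in labelled knockout kidneys and 9.20 to 12.2 CPM in wild-type kidneys, and 12.6 to 16.5 CPM in labelled knockout livers and 9.80 to 13.4 CPM in wild-type livers. Its log2 fold change was 0.26 ± 0.16 in kidney and 0.26 ± 0.13 in liver.

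Of the nearly identical copies, Nat8f3, Nat8f6 and Nat8f7 were tested in kidney and differed there by 0.57 ± 0.21, 0.44 ± 0.30 and 0.54 ± 0.35 on the log2 scale, none of them called and all with overlapping groups. They did not pass the filter on low counts in liver. There Nat8f6 had 10, 11, 24, 36 and 52 counts in the libraries labelled Lxrα-/- and 2, 0, 7, 2 and 1 counts in the wild-type libraries, which did not overlap. Summed over the libraries this is 133 against 12 counts, a scaled ratio of 12.2 (95% exact interval 6.73 to 24.1, counting error only). Settings that let Nat8f6 pass in liver gave log2 fold changes of 3.50 to 3.54 in 3 fits (no filter, no mitochondrial genes, all 20 libraries together). The 9 fits without 1 library in which it passed gave 3.07 to 4.404. Other than with no filter, Nat8f6 passed only through libraries where it was high, labelled knockout livers or kidneys. Its calls in these fits therefore carry no weight. The overlap with exons of Nat8f5 touches the liver values of Nat8f6: for every 100 counts of Nat8f5 there were 3.62 to 7.69 counts of Nat8f6 in the labelled knockout livers and 0 to 8 in the wild-type livers. In kidney the same measure was 115.5 to 204.4 in labelled knockout and 388.7 to 572.2 in wild type. Whether liver counts of Nat8f6 are reads of Nat8f5 was not tested.

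In all, 1 of 8 members tested in kidney was called higher and none lower, beside 0.394% and 1.87% of all tested genes. In liver 3 of the 5 members that passed the filter were called higher and none lower, beside 1.94% and 4.08% of all tested genes. The median log2 fold change was 0.55 over the 8 members in kidney, beside -0.07 over all genes. No median is given for liver, where 3 members did not pass the filter on low counts. Genotype effects were also set against each other between the tissues, as the kidney effect minus the liver effect. Nat8, at -2.998 ± 0.45, was called lower, that is with the larger fold difference between the labels in liver, and 0.568% of all tested genes were called lower. In CPM the gap was wider in kidney, with means of 324.8 in labelled knockout and 145.6 in wild type, against 32.0 and 1.80 in liver. Nat8f6 stood at -3.07 ± 0.74 and was called as well, but it entered this fit through its kidney counts alone, and omitting a library ended its call for 13 of 20 libraries. The other 6 members were not called.

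**Figure D3:**
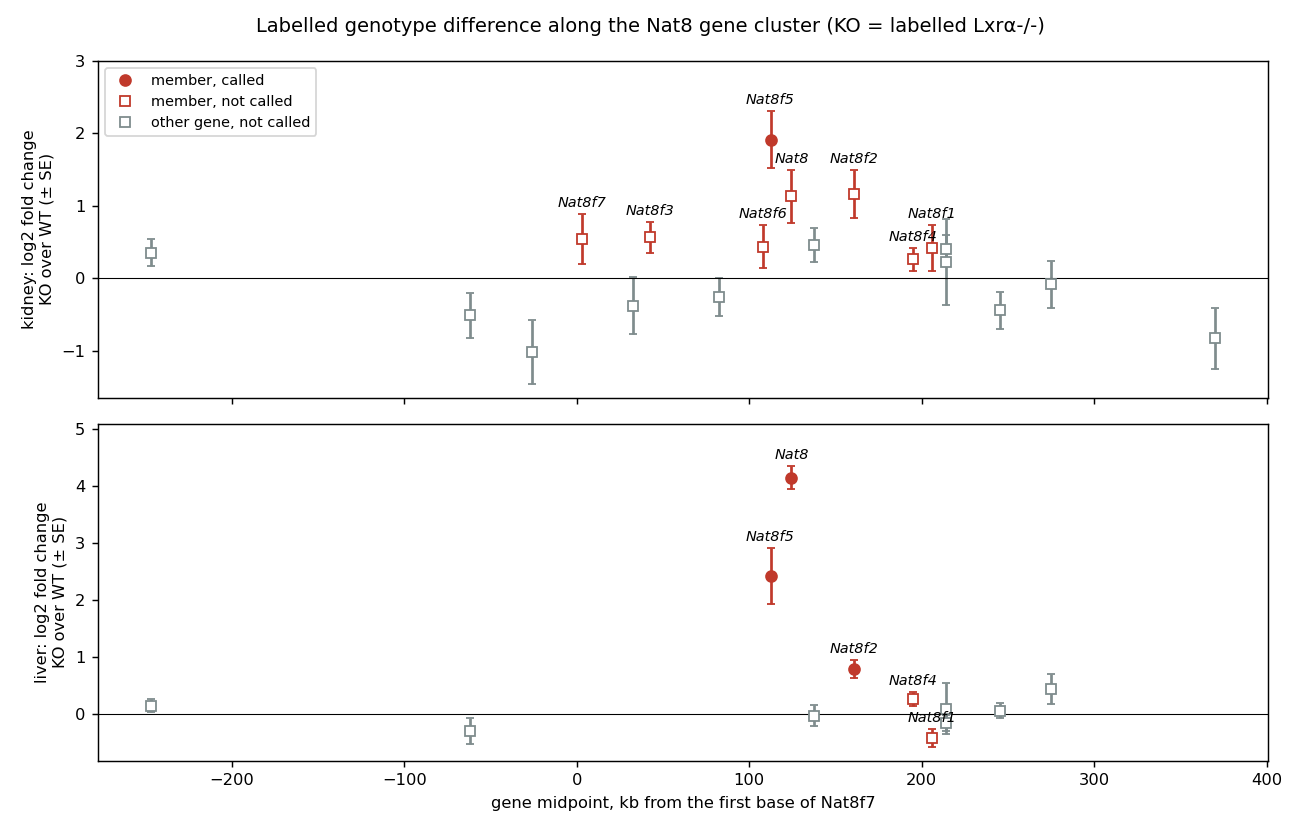
Log2 fold change of labelled knockout (KO) over wild type (WT) with its SE for every tested gene within 250 kb of the cluster, by gene midpoint in kb from the first base of Nat8f7, in kidney (top) and liver (bottom). Filled circles are called members, open red squares other members and open grey squares other genes, none of which was called.

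Other genes around the cluster were not called between the labels. Within 250 kb of the cluster the count table holds 25 further genes, of which 11 were tested in kidney and 7 in liver. Ptges3-ps, a pseudogene that lies between Nat8 and Nat8f2, had a log2 fold change of 0.45 ± 0.23 in kidney and -0.03 ± 0.19 in liver. Tprkb, which encodes a subunit of a tRNA-modifying complex, stood at 0.41 ± 0.18 in kidney and -0.16 ± 0.15 in liver. Dusp11, an RNA phosphatase, stood at -0.45 ± 0.26 in kidney and 0.06 ± 0.14 in liver, and Alms1, the centrosomal gene of Alström syndrome, at -0.51 ± 0.31 and -0.31 ± 0.23. Cct7, a chaperonin subunit, had 0.35 ± 0.19 in kidney and 0.14 ± 0.12 in liver. The others, Alms1-ps1, Alms1-ps2, Gm42600, Gm18290, Gm19265 and Add2, lay between -1.02 and 0.44. The difference between members and neighbours was not tested.

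The summed level of the family was 1038 ± 201 CPM in the kidneys labelled Lxrα-/- and 612 ± 284 CPM in the wild-type kidneys (SD, n = 5 each), and these ranges overlapped. It was 1985 ± 209 CPM in the labelled knockout livers and 1328 ± 207 CPM in the wild-type livers, with no overlap. Shares within the family, taken per kb, do not depend on how libraries are scaled. Nat8 made up 37.4% ± 1.73 of the family in labelled knockout kidneys and 28.5% ± 5.70 in wild-type kidneys, and 3.80% ± 0.80 in labelled knockout livers against 0.286% ± 0.069 in wild-type livers. Nat8f5 made up 8.48% ± 2.46 in labelled knockout kidneys and 3.97% ± 0.74 in wild-type kidneys. Its liver share was 2.89% ± 1.16 in labelled knockout and 0.739% ± 0.508 in wild type. For both genes the shares did not overlap between the labels, in kidney and in liver.

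The share of Nat8f1 was lower with the knockout label in both tissues. It held 41.1% ± 2.64 of the family in labelled knockout kidneys and 52.0% ± 5.28 in wild-type kidneys, and 26.7% ± 7.16 in labelled knockout livers against 47.3% ± 3.18 in wild-type livers, again without overlap. Nat8f2 held 65.9% ± 6.84 of the family in labelled knockout livers and 51.0% ± 2.84 in wild-type livers, where the highest wild-type value of 54.9% exceeded the 54.4% of labelled knockout liver 3. Nat8f1 and Nat8f2 together made up 91.3% to 93.4% of the family in labelled knockout livers and 97.7% to 98.9% in wild-type livers. In each group the shares sum to the whole, so that a higher share of one member lowers the others.

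**Figure D4:**
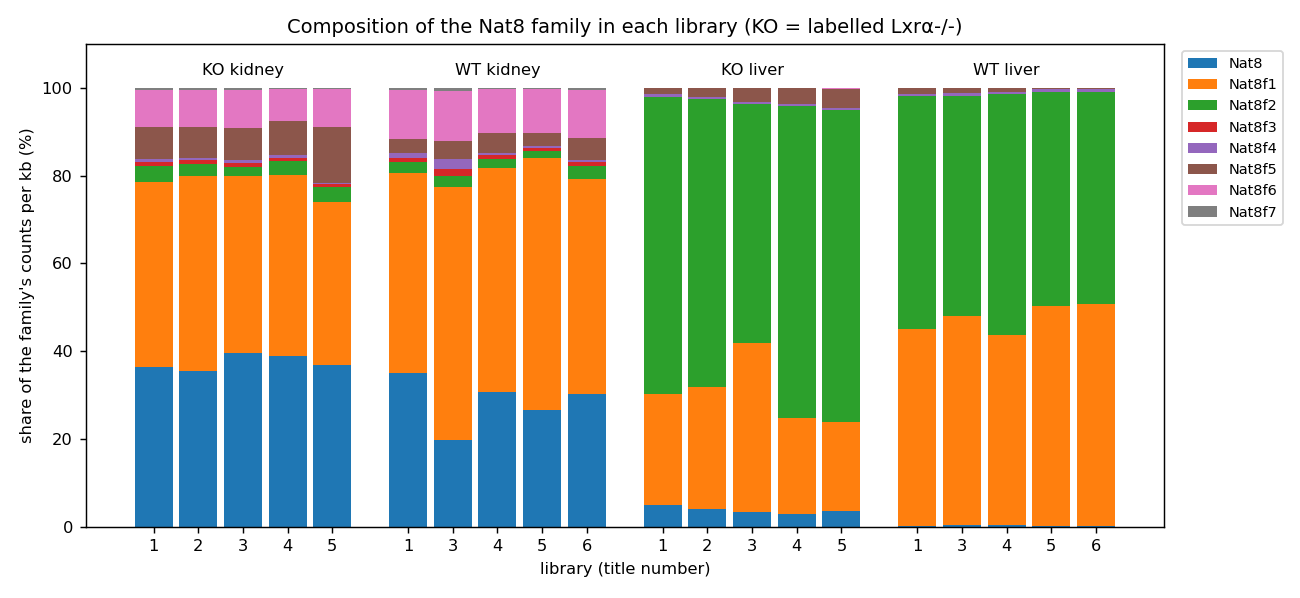
Share of each member in the summed counts per kb of the family, in percent, for each library by its title number; KO stands for the label Lxrα-/-. Nat8 and Nat8f1 together make up 73.9% to 80.1% in labelled knockout kidneys and 77.3% to 83.9% in wild-type kidneys, and Nat8f2 is the largest share in all 5 labelled knockout livers.

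Genes whose pattern over the 10 libraries of a tissue was most like that of a member were ranked by Pearson r of log2 CPM. These values are a description, since the libraries share their labels and their depth. In liver the genes most like Nat8 were Cyp7b1, which hydroxylates oxysterols (r = 0.99, Spearman rho = 0.75), Susd4 (r = 0.98, rho = 0.78) and Cd207, which encodes langerin (r = 0.98, rho = 0.78). All 3 were themselves called higher in the livers labelled Lxrα-/-. Among the genes most like Nat8f5 in liver were Mtmr4 and Mup-ps19 (r = 0.96 and 0.95). For Nat8f2 in liver these were Egln1, an oxygen-sensing prolyl hydroxylase, Tmem19 and Mtg2 (r = 0.98, 0.95 and 0.95), and for Nat8f1 they were Cyp4b1, Hsd17b6 and Snx5 (r = 0.98, 0.95 and 0.94). Nat8f4 was most like Zfp36l1-ps, St8sia3 and 0610010K14Rik (r = 0.91, 0.88 and 0.88).

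In kidney the genes most like Nat8 were Cacfd1, Ephx2, the soluble epoxide hydrolase, and Bphl (r = 0.994 or higher). For Nat8f5 they were Gm15217, Eipr1 and Glrx (r = 0.98 for each), for Nat8f2 Mpp1, Sec23b and Nckap1, and for Nat8f1 Nit2 and the respiratory chain genes Ndufs6 and Ndufb3. Those of Nat8f6 were Cox14, Gm5425 and Sec13, those of Nat8f3 were Vps41, Tmem199 and Tpp1, those of Nat8f7 were Dcxr, Asl and Hoga1, and those of Nat8f4 were Pde9a, Golga5 and Tchh, with r from 0.876 for Tchh to 0.993 for Cox14 over these lists. None of these kidney genes was called between the labels.

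The pathway around human NAT8 was looked at through 16 genes that make and break down glutathione and process its cysteine conjugates. Of the 14 tested in kidney, 1 was called higher in the labelled knockout and none lower, and of the 13 tested in liver none was called. Over all tested genes 0.394% were called higher and 1.87% lower in kidney, and 1.94% and 4.08% in liver. The list was chosen with earlier results of these data known, so its calls are a description. The called gene was Ggt6, of the gamma-glutamyltransferase family, which had 9.82 to 13.4 CPM in the kidneys labelled Lxrα-/- and 4.35 to 6.54 CPM in the wild-type kidneys. These did not overlap, as for 3.07% of all tested genes in that direction, and the log2 fold change was 0.97 ± 0.16. Ggt1, the gamma-glutamyltransferase of the brush border, and Acy3, which deacetylates mercapturic acids, were the most abundant of the list in labelled knockout kidney, with log2 fold changes of 0.51 ± 0.21 and 0.82 ± 0.28 that were not called. The median of the list was 0.19 in kidney and 0.10 in liver, beside -0.07 and -0.003 over all genes.

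Partners in acetylation inside the endoplasmic reticulum and other N-acetyltransferases were not called between the labels in either tissue, in any of the 3 and of the 13 genes tested in kidney and the 3 and 14 tested in liver. Slc33a1, the acetyl-CoA transporter of the endoplasmic reticulum, stood at -0.05 ± 0.22 in kidney and 0.07 ± 0.13 in liver. Bace1, a protease reported as acetylated there, stood at -0.32 ± 0.14 in kidney and 0.10 ± 0.12 in liver. Glyat, a mitochondrial enzyme that joins acyl groups to glycine, stood at 0.42 ± 0.25 in kidney and 0.01 ± 0.11 in liver.

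Among the tissue markers, 1 of 16 proximal tubule genes was called higher in labelled knockout kidney, beside 0.394% of all tested genes. The marker called was Slc22a6, an organic anion transporter, with 1002 to 1608 CPM in labelled knockout and 346.3 to 721.3 CPM in wild type (log2 fold change 1.11 ± 0.24). In liver 7 of these markers were tested and 2 were called higher, beside 1.94% of all tested genes. Lrp2, the endocytic receptor megalin, had 0.506 to 3.22 CPM in labelled knockout livers and 0.0485 to 0.387 CPM in wild-type livers, and Acsm2 had 3.13 to 6.11 CPM against 1.65 to 2.98 CPM. Slc22a6 had no count in any labelled knockout liver and at most 1 count in a wild-type liver. Of the 12 hepatocyte markers, Alb was called lower in labelled knockout liver, at -0.75 ± 0.20 on the log2 scale, beside 4.08% of all tested genes. The marker lists were also chosen with earlier results known, so their calls are a description.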

How the data were processed

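RNA was sequenced from kidney and liver with 5 libraries per labelled genotype and tissue, made with the NEBNext Ultra RNA kit after Trizol extraction, per the labels. The submitters' processing notes name HISAT2 2.0.5, StringTie, DESeq2 1.16.1 and mm10, with no role or order, and the counting tool and its use of strand are not given in the sources used here. The authors deposited raw counts per gene for 54532 genes, and a table of log2 FPKM for 15454 genes, which served in 1 alternative. Totals were 23421561 to 35376342 per library. The design text counts 5 mice per genotype, so a title number shared by a kidney and a liver with the same label stood for 1 mouse in the block; their deviations correlated at -0.096 to 0.262 in labelled knockout and -0.163 to 0.362 in wild type. Libraries of a group differed beyond sampling noise and each counted as 1 replicate.

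Genes were tested with edgeR 4.0.16 (R 4.3.3; filterByExpr with a minimum count of 10, TMM, quasi-likelihood test) on the libraries of each contrast, with p-values adjusted by Benjamini and Hochberg over all tested genes and calls at an adjusted p under 0.05. SEs come from the log2 fold change and its F. The pipeline was tested on simulated data. CPM use library size and TMM factors over all 20 libraries. Likeness used log2(CPM + 0.1). Intervals and floors cover counting error only. Sequences are from RefSeq tables (GRCm38) and GENCODE M21, read with Biopython 1.88. Protein sequences were not used here.

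The members and gene lists were chosen with earlier results of these data known. Named genes were the members, tested neighbours within 250 kb, list members called in a genotype contrast (at most 4, otherwise the most abundant) and the 3 genes most like each member with a mean of at least 1 CPM. A gene that this rule names is not reported here. Fits were repeated with DESeq2 1.42.0, with its size factors in edgeR, without TMM, with 2 other filters, limma-trend (limma 3.58.1) on log2 FPKM, with the 20 libraries fitted together, without mitochondrial genes, without wild-type kidneys 1 and 3, with title numbers as a block, and without each replicate in turn.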

Additional observations from a re-analysis of the deposited data

Results flagged for a closer look

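Samples that stood far from their group by Dixon's criterion (critical value 0.71 for 5 samples) were sought in 28 sets of member, labelled genotype and tissue, and chance marks about 1 in 20 such sets. Labelled knockout kidney 5 was marked for Nat8f1, at 520.3 CPM, and for Nat8f5, at 131.9 CPM. Wild-type kidney 3, with 50.8% of its counts on mitochondrially encoded genes, was marked for Nat8f4, at 12.2 CPM.

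The difference between labels in kidney less the same difference in liver was -2.998 on the log2 scale for Nat8 and -3.07 for Nat8f6, both called in the fit of all 20 libraries, which Nat8f6 entered through its kidney counts alone. The family was proposed with such results in view, so these values are a description.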

How the results depend on the processing

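In kidney, where 1 member was called between the labels, 3 were called by DESeq2 and in a fit of all 20 libraries, 2 without a filter and 2 without wild-type kidneys 1 and 3, and 0 to 3 when 1 library was left out (none without wild-type kidney 1, 4 or 5 or labelled knockout kidney 1, 3, 4 or 5; 2 without wild-type kidney 3; 3 without wild-type kidney 6). With title numbers fitted as a replicate block 4 were called in kidney and, in liver, 1 in place of 3, while it changed no member's call in the tissue contrasts or their difference. In liver leaving out 1 library gave 3 to 5 calls of either direction, the highest without labelled knockout liver 3. Nat8, Nat8f2 and Nat8f5 were called higher in each of these fits. The added calls were of Nat8f6, which then passed the filter through the labelled knockout livers, and of Nat8f1, called lower in 1 fit. For the tissue contrast, limma-trend on the log2 FPKM table, which lacks Nat8f3, Nat8f6 and Nat8f7, called 3 in wild type and 4 in labelled knockout. The main fits called as many among the same 5 members. For the difference between tissues limma-trend, without Nat8f6 in its table, called 1 in place of 2. Leaving out 1 library gave 1 to 2, as the Nat8f6 call was lost in 13 of 20 such fits (labelled knockout kidneys 1, 2, 3 and 4 and livers 3, 4 and 5; wild-type kidneys 4 and 5 and livers 1, 3, 5 and 6). Nat8 in liver was called in every fit run, with log2 fold changes of 4.01 to 4.32. Reversed signs were 0.46 for Nat8f1 and 0.44 for Nat8f4 in the wild-type tissue contrast without TMM, 0.21 for Nat8f1 without wild-type kidneys 1 and 3, and 0.45 for Nat8f4 in the labelled knockout without TMM. The Nat8f4 difference between tissues, near 0, reversed to -0.0085 with a filter at 1 CPM and ranged from -0.054 to 0.093 over leave-one-out fits. Where no value shows the cause, the cause was not tested. Same-numbered libraries of the 2 labels deviated together with correlations of 0.077 to 0.222 in kidney and -0.033 to 0.013 in liver, and nothing ties equal numbers of different labels, so there they are taken as names.

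Depth limits the liver values of Nat8f3, Nat8f6 and Nat8f7, where 3 counts correspond to 0.106 to 0.157 CPM.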

Other observations

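Nat8b-ps, the pseudogene within the neighbourhood that shares windows with Nat8f1, varied between libraries without following labels or tissues. It was picked out after its values were seen. It had 62 counts in labelled knockout kidney 4 and 4 to 7 in the other labelled knockout kidneys. It had 116 and 113 counts in wild-type kidneys 5 and 6 and 2 to 3 in wild-type kidneys 1, 3 and 4. In liver it had 2 to 14 counts in the labelled knockout libraries, 68 in wild-type liver 5 and 0 to 3 in the other wild-type livers. No contrast within a tissue or a labelled genotype tested this gene, since it did not pass the filter.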
